A study of Arabidopsis thaliana with 9 samples.

Results

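The loci described here are the annotated Arabidopsis genes and pseudogenes numbered AT5G31000 to AT5G36500, near the chromosome 5 centromere. Members were selected on their measured counts: a locus was taken when its total over the 9 mRNA-seq libraries was at least 10, and 93 of the 635 loci in this range, out of 37336 counted in all, met that rule. The sum uses the mutant libraries as well as WT, so a locus that is transcribed only in a mutant can enter through the mutant alone. The 93 loci span 2.23 Mb, from base 12076717 to base 14305182 of chromosome 5 in TAIR10.1, whose nuclear coordinates are those of TAIR10.

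WT, *zmp-1* and *zmp-2* plants, all in the Col-0 ecotype, gave 3 libraries each. The alleles are T-DNA insertions in *ZMP* (AT5G63700), SALK_066029 in *zmp-1* and SALK_008955 in *zmp-2*. The labels describe seedlings at an age of 12 days, whereas the methods name inflorescences. The markers of green tissue *RBCS1A*, *CAB2* and *RCA* had 3551 to 27443 counts per library, and the floral organ genes *AG*, *AP3* and *AP1* had 0, 0 to 2 and 0 to 1. The other floral genes on the list, *PI* and *SEP3*, had 2 to 13 and 6 to 25 counts. The separate growth of the replicates was not described further, so the p-values measure the spread between these libraries.

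Libraries held 5815211 to 25182435 counts, of which 55.1% to 66.3% were chloroplast transcripts. The floor of 3 counts was therefore worth 0.119 to 0.516 RPM (counts per 1000000 of the library), and this floor covers counting error only, while the 95% intervals of fold changes are from the fit and include the spread between libraries. *ZMP* itself had 58, 103 and 74 counts in WT, 51, 17 and 20 for *zmp-1* and 22, 13 and 20 for *zmp-2*. After scaling for depth its log2 fold change was −2.35 in *zmp-2* (adjusted p = 0.0101, quasi-likelihood test of edgeR, adjusted by Benjamini-Hochberg over 18109 genes) and −1.35 in *zmp-1* (adjusted p = 0.155). The library labelled *zmp-1* replicate 1 is the deepest of the 9, and its 51 *ZMP* counts correspond to 2.14 normalized RPM, that is RPM scaled with edgeR's TMM factors, against 5.53 to 7.48 in WT.

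Pericentromeric chromatin is packed with transposable elements and their remains, marked by DNA methylation and histone H3 lysine 9 methylation, and is mostly silent. Plants maintain part of this silence with 24-nt siRNAs made from transcripts of RNA polymerase IV, which guide DNA methylation back to the same sequences. ZMP is a PHD finger protein that interacts with Pol IV, so these loci were compared for transcripts released or lost in its mutants. Protein-coding genes lie between the repeats, and some of them are strongly transcribed.

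Most loci of this stretch had no count. STAR's gene counts hold uniquely mapped reads only, so 0 counts at a repeated sequence does not show that no transcript was made. Of the 635 loci, 469 had no count in any library, and 14.6% reached 10 counts against 57.7% of the 37051 nuclear loci. The range is rich in loci annotated as plain pseudogenes, the class in which the reference places transposable element genes. It holds 416 of them, and 8 (1.92%) reached 10 counts, against 4.94% of this class in the nuclear genome. Of 37 transcribed pseudogenes 4 (10.8%) did, against 18.1%. The protein-coding loci were the main source of transcripts, with 80 of 176 (45.5%) against 74.0% of all nuclear protein-coding genes. The last of the 93 is a noncoding RNA, AT5G33399, with 11 counts.

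**Figure D1:**
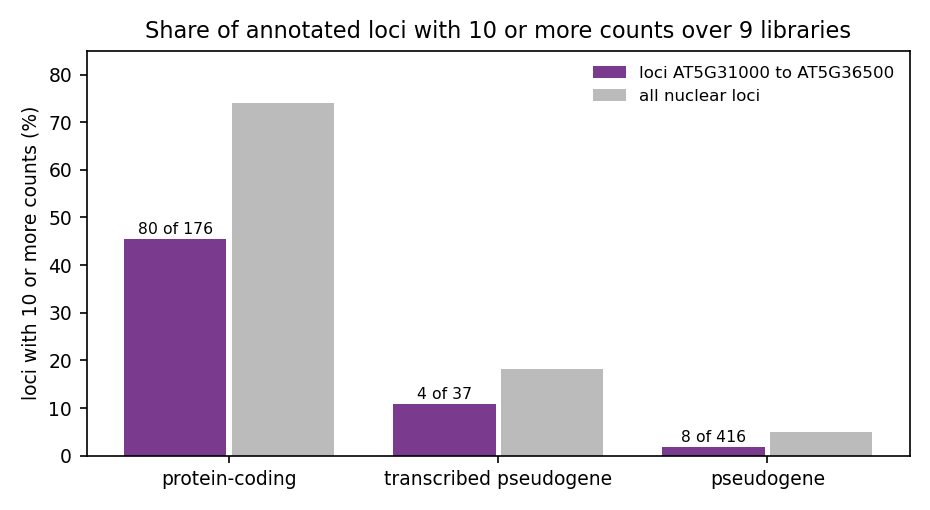
Share of annotated loci with at least 10 counts over the 9 libraries (y axis, percent), for protein-coding loci, transcribed pseudogenes and pseudogenes in the range AT5G31000 to AT5G36500 (purple) and in the whole nuclear genome (grey). Each purple bar is lower than its grey partner, with 45.5% against 74.0% for protein-coding loci.

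At the edge of the rule lay loci with hardly a read. AT5G36260, an aspartyl protease, was just inside it with 10 counts, AT5G33399, AT5G35932 and AT5G36100 had 11, no locus had 9, and 2 loci had 8. The families of small secreted DUF784 and ECA1 proteins, known for expression in the female gametophyte and the seed, had 10 annotated loci in the range and none of them reached 10 counts.

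In all, transcripts of the 93 loci made up 5473, 5165 and 4637 of every 1000000 nuclear counts in the WT libraries. The values were 5493, 5585 and 5348 in *zmp-1* and 5876, 5213 and 5560 in *zmp-2*. Both mutants overlapped WT.

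For the test between genotypes, 73 of the 93 loci had enough counts, and the other 20 are described by their counts. One locus, AT5G35935, passed an adjusted p-value of 0.05 in *zmp-1* against WT, where 0.0442% of the 18109 genes tested did. It was again the only one of the 73 in *zmp-2* against WT, where 0.177% of all genes passed. AT5G35935 met the filters on counts through its mutant libraries. No tested locus passed in *zmp-2* against *zmp-1* (0.0221% of all genes), where 2 had an unadjusted p under 0.05 with edgeR (4.36% of all genes) and DESeq2 also called 0. Since both mutants are compared with the same WT libraries, their values are given side by side and not as independent results.

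The locus that rose, AT5G35935, is annotated as a pseudogene of 6504 bp on the minus strand, chr5:14083388-14089891, with no named product. Its sequence is shown because its layout was not part of the rule. A pair of direct repeats of 109 bp, 97.2% identical, lies 5262 bp apart from outer end to outer end, and capitals in the pair mark the 3 bases at which they differ. Directly after the 5′ repeat, with 0 bases between, stand the 12 bases in capitals in the third line, which pair with the 3′ end of 8 of the 23 annotated nuclear methionine tRNAs (with the CCA that is added to a tRNA). Such a stretch is known in LTR retrotransposons as the primer-binding site, where a tRNA primes reverse transcription. All 3 sequences are from the minus strand of the TAIR10.1 reference, read 5′ to 3′.
5′ repeat, chr5:14088427-14088535: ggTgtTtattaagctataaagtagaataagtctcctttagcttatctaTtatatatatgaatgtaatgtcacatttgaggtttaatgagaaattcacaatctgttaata
3′ repeat, chr5:14083274-14083382: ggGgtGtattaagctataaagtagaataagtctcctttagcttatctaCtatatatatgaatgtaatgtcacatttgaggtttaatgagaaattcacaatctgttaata
Bases after the 5′ repeat, chr5:14088397-14088426: TGGTATCAGAGCaaaacaaactttttctca

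The annotated locus takes in the 5′ repeat and the sequence between the repeats, and the 3′ repeat ends 6 bp from it. Beyond the 5′ repeat, which ends at base 14088535, the locus continues to base 14089891. Counts per gene do not show where in the locus its reads fall. The 12-base match is a description of the sequence and not a proven site. On their own strand, 42 of the 3903 plain pseudogenes of the genome (1.08%) hold it. On either strand 411 of 18316 genome windows of 6504 bp (2.24%) do. Of the 8 members in the plain pseudogene class, AT5G35935 is the 1 that holds it on its own strand. The other members were not searched. The search was made after its values were seen. The longest match elsewhere in the genome is 3404 bp at 70.9% identity. At 95% identity or more, the largest part with a copy outside the locus is 1.58% of its length, at 99.0% identity. Reads from that part are uncertain.

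AT5G35935 had 1, 4 and 0 counts in the WT libraries, 65, 18 and 22 in *zmp-1*, and 32, 25 and 27 in *zmp-2*. Scaled for depth, these are 0.119 ± 0.133 normalized RPM in WT (SD, n = 3), 3.01 ± 0.249 for *zmp-1* and 1.97 ± 0.201 for *zmp-2*. All 6 mutant libraries lay above all 3 WT libraries, and the *zmp-1* libraries lay above those of *zmp-2*. The locus thus passed the filters on counts through its mutant libraries, and the fitted change rests on 5 counts in WT. Its fold changes and adjusted p-values are therefore a description.

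The log2 fold change was 4.35 in *zmp-1* (SE 0.538, adjusted p = 0.0242) and 3.75 in *zmp-2* (SE 0.543, adjusted p = 0.0274, quasi-likelihood test of edgeR), which are 20.4-fold and 13.5-fold. The difference between the mutants, −0.60 on the log2 scale, did not pass (adjusted p = 1.0). These sizes depend on WT: without WT replicate 3 the log2 fold changes were 3.89 and 3.30, and without WT replicate 2 they were 5.66 and 5.07. The direction held in every alternative in which the locus could be tested. Because the locus entered through its mutant libraries and each alternative reads the same counts, that is no support for the rise. The call did not hold in all of them. In *zmp-1* it was lost without *zmp-1* replicate 2 (adjusted p = 0.0812) or replicate 3 (0.149), and in a fit of those 6 libraries alone (0.0616). In *zmp-2* it was lost without *zmp-1* replicate 1 (0.0591) or 2 (0.0724), without *zmp-2* replicate 1 (0.0762), 2 (0.123) or 3 (0.104), and in the separate fit (0.118). Over the 17 alternatives in each comparison it stayed under 0.05 in 14 and 11. These numbers include the threshold of 0.1, which reads the main fit again and so could not differ from it. The adjusted p-values ran from 9.31e-06 to 0.149 in *zmp-1* and from 2.27e-04 to 0.123 in *zmp-2*.

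The neighbours of AT5G35935 can be set beside it. AT5G35932, a transcribed pseudogene on the plus strand at chr5:14076894-14078367, had 0 counts in every WT library, 6, 0 and 0 in *zmp-1* and 1, 1 and 3 in *zmp-2*, too few for the test. With WT at 0, it met the rule on total counts through mutant libraries alone. AT5G35940, a jacalin-related lectin that begins 682 bp upstream of the pseudogene on the other strand, had 1, 27 and 5 counts in WT, 3, 5 and 3 for *zmp-1* and 0, 2 and 1 for *zmp-2*. Its groups overlapped, and the high value belongs to WT replicate 2 alone.

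That library also had 58 counts of the root marker *EIR1*, an auxin efflux carrier, against 4 and 6 in the other WT libraries and 8 to 34 in the mutants. In normalized RPM these were 3.81, against 0.381 and 0.606 in WT and 0.546 to 2.30 in the mutants. The second root marker, *SHV2*, had 8 counts there and 0 to 5 elsewhere. Scaled for depth it did not single out that library, with 0.525 normalized RPM there and 0.530 in *zmp-1* replicate 2. The part of root tissue in the lectin's value was not tested, and in bulk samples fewer cells of a type and less RNA per cell cannot be told apart.

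The class of pseudogenes has 12 members, of which 6 were tested, and none of the 6 but AT5G35935 passed in either mutant. *MUG8*, of the MUSTANG family of domesticated transposase genes, had the most counts of them (1961), at 15.2 ± 2.28 normalized RPM in WT, 17.7 ± 2.3 for *zmp-1* and 18.5 ± 2.76 for *zmp-2* (SD, n = 3). AT5G35777, with 982 counts, had 7.13 ± 1.89, 9.83 ± 3.12 and 7.72 ± 1.99. Both overlapped between genotypes.

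The neighbouring pseudogenes, AT5G34790, AT5G34795 and AT5G34800, lie within chr5:12966080-12973180. AT5G34800 had 4, 6 and 8 counts in WT, 4, 2 and 1 for *zmp-1* and 11, 10 and 8 for *zmp-2*. In *zmp-1* it was below WT without overlap, and in *zmp-2* it overlapped WT. Its log2 fold changes against WT were −1.34 (adjusted p = 0.551) and 0.40 (adjusted p = 0.810), and the difference of 1.73 between the mutants had an adjusted p of 1.0. AT5G34790 had 6, 16 and 6 counts in WT, 7, 0 and 12 for *zmp-1* and 7, 10 and 14 for *zmp-2*. A part of AT5G34795 amounting to 66.4% of its length has a copy elsewhere at 95.6% identity, so its 40 counts are uncertain.

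Of the pseudogenes with few counts, AT5G35780 had 0 counts in WT, 3, 0 and 0 for *zmp-1* and 5, 2 and 2 for *zmp-2*. It and AT5G35932 are the 2 pseudogenes of the 12 with no count in any WT library, and no fold is given for either. Both met the rule on total counts through mutant libraries alone, so mutant counts above WT were fixed by the selection. They are outside the 10 highest totals and were named after their values were seen. AT5G35738 had 13, 17 and 10 counts in WT, 12, 7 and 6 for *zmp-1* and 8, 10 and 5 for *zmp-2*, and its levels in *zmp-2* lay below WT without overlap (log2 fold change −1.03, adjusted p = 0.418). AT5G33382, AT5G35420 and AT5G35643 had totals of 19, 14 and 15 counts over the 9 libraries, and each had a library at 0.

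Summed, the 12 pseudogenes gave 78.4, 75.9 and 56.3 counts per 1000000 nuclear counts in WT. The sums were 95.5, 106 and 77.6 in *zmp-1*, which overlap WT, and 83.2, 88.9 and 85.8 in *zmp-2*, which do not. Without AT5G35935 the *zmp-2* values were 77.2, 83.5 and 80.8 against 78.1, 75.2 and 56.3 in WT, and they overlapped. AT5G35935, AT5G35780 and AT5G35932 entered the sum through mutant libraries, so the selection itself raises the sum in the mutants. *MUG8* (1961 counts) and AT5G35777 (982) have the most counts of the 12, so the sum mainly follows these loci and not the class.

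**Figure D2:**
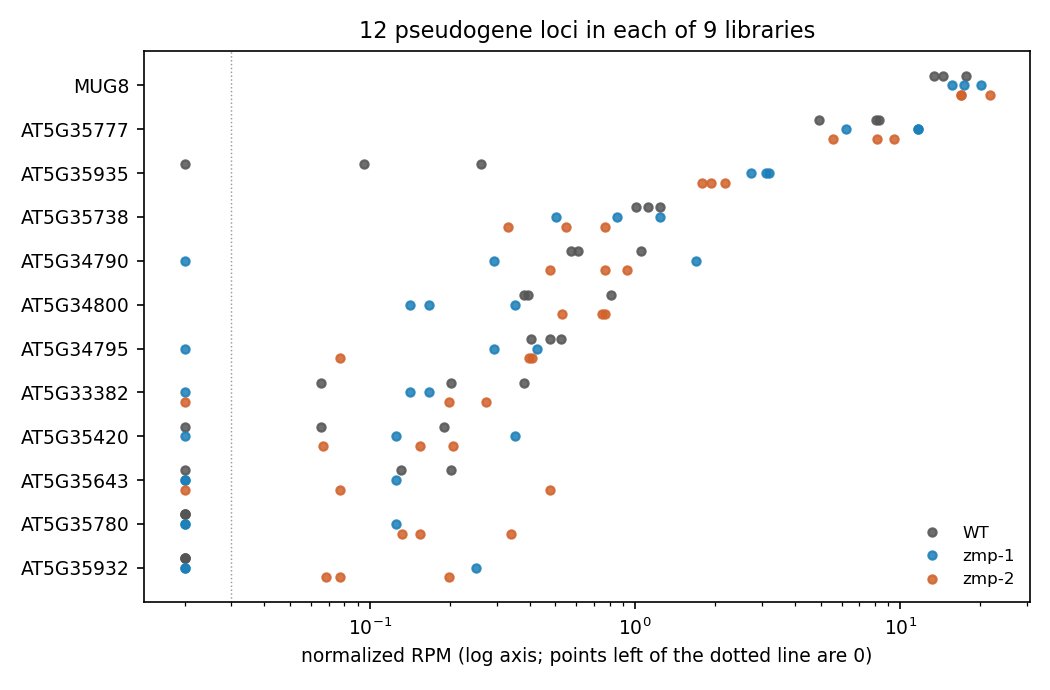
Levels of the 12 pseudogene loci (rows) in each of the 9 libraries, in normalized RPM on a log axis; grey points are WT, blue *zmp-1* and orange *zmp-2*, and points left of the dotted line are 0. AT5G35935 is the row in which the WT points, at 0 to 0.262, stand apart from the mutant points at 1.79 to 3.18.

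The next loci in size of change were a pair of adjacent genes, AT5G35480 and *MRU1* (AT5G35490). AT5G35480 encodes an uncharacterized protein on the minus strand, chr5:13687847-13689596. *MRU1*, on the plus strand at chr5:13689817-13690548, is named for its rise in the *mto1* mutant, which overaccumulates methionine. The genes point away from each other with 220 bp between their annotated ends, the shortest such distance between divergent neighbours among the 93 loci. The sequence between them is shown because it lies upstream of both, with motif matches in capitals. It is read on the plus strand from the start of AT5G35480 to that of *MRU1*.
AT5G35480 to *MRU1*, chr5:13689597-13689816: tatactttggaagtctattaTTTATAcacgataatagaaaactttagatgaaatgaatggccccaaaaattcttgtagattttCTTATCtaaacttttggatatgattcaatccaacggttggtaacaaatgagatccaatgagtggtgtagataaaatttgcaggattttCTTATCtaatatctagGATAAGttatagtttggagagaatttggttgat

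Counted from its first base, the stretch holds the I-box core GATAAG, found in promoters of many light-regulated genes, on the plus strand at 188 to 193 and on the minus strand at 84 to 89 and 172 to 177. Among the 220 bp upstream of 27444 protein-coding genes, 10.9% hold this core on either strand. TATAAA, the TATA box, stands on the minus strand at 21 to 26, facing AT5G35480, and 43.7% of the upstream windows hold it. The G-box CACGTG (6.0% of windows) and the evening element AAAATATCT (2.07%) are not in this window. The motifs were searched on both strands after the values were seen, none of these matches overlap, and a match does not show a site in use.

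AT5G35480 had 6, 10 and 3 counts in WT, 78, 13 and 35 for *zmp-1* and 21, 89 and 55 for *zmp-2*. In normalized RPM these were 0.510 ± 0.184, 3.51 ± 1.35 and 3.98 ± 2.73 (SD, n = 3). Every mutant library was above every WT library, and the *zmp-2* libraries ranged from 1.43 to 6.86.

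*MRU1* had 5, 7 and 1 counts in WT, 42, 6 and 11 for *zmp-1* and 24, 29 and 30 for *zmp-2*. The scaled levels were 0.346 ± 0.212, 1.46 ± 0.36 and 1.95 ± 0.30 normalized RPM, again with no overlap between WT and either mutant. In WT replicate 3 both genes are at or under the floor of 3 counts.

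Neither passed the test across all genes. Both passed the filter on low counts through their mutant libraries, so the values that follow are a description. For AT5G35480 the log2 fold change was 2.72 (95% interval 1.42 to 4.02, adjusted p = 0.252) in *zmp-1* and 2.89 (1.62 to 4.16, adjusted p = 0.0975) in *zmp-2*. For *MRU1* it was 2.05 (0.99 to 3.11, adjusted p = 0.286) and 2.41 (1.39 to 3.44, adjusted p = 0.0850). The intervals are for a single gene, while the adjusted p counts all 18109. DESeq2 called AT5G35480 in both mutants (adjusted p = 0.00402 and 6.37e-04) and *MRU1* in *zmp-2* (0.00892), and so did edgeR when low counts were not filtered (0.0357, 0.0128 and 0.0336). Over all alternatives the adjusted p ran from 0.00402 to 0.754 for AT5G35480 and from 0.0894 to 0.754 for *MRU1* in *zmp-1*, and in *zmp-2* from 6.37e-04 to 0.326 and from 0.00892 to 0.326. A region that binds Pol IV in dependence on ZMP, on the study's list from inflorescences, lies inside *MRU1* and within 1 kb of AT5G35480, and no other of the 93 loci is within 1 kb of such a region. Sites bound by ZMP lie within 1 kb of 7 of the loci, and regions at which ZMP lowers Pol IV binding within 1 kb of 2, and none of these 9 passed (AT5G35760 and AT5G35960 could not be tested). That window was chosen after the values were seen, and the part of such sites in the levels was not tested. The share of all genes within 1 kb of such sites was not measured, so these counts of loci are a description only.

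**Figure D3:**
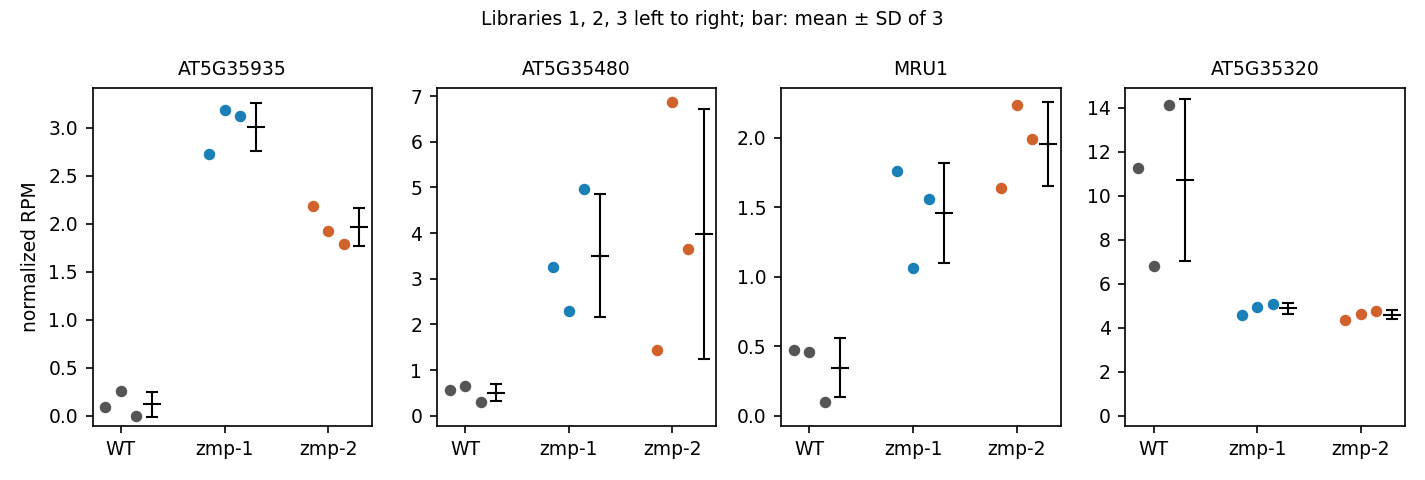
Levels of AT5G35935, AT5G35480, *MRU1* and AT5G35320 in each library (y axis, normalized RPM; points are replicates 1 to 3 from left to right, bars the mean ± SD of 3). In the first 3 panels the WT points lie below all mutant points, and in the AT5G35320 panel the WT points, at 6.82 to 14.1, lie above mutant points of 4.37 to 5.10.

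AT5G35320, annotated as a DBH-like monooxygenase at chr5:13521746-13523506, lay below WT in all 6 mutant libraries. It had 118, 104 and 140 counts in WT, 110, 28 and 36 for *zmp-1* and 64, 60 and 72 for *zmp-2*, or 10.7 ± 3.69, 4.89 ± 0.253 and 4.59 ± 0.202 normalized RPM (SD, n = 3). The mutant groups did not overlap WT once the greater depth of *zmp-1* replicate 1 was scaled for.

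The log2 fold changes of AT5G35320 were −1.13 (95% interval −1.69 to −0.58, adjusted p = 0.269) in *zmp-1* and −1.22 (−1.76 to −0.67, adjusted p = 0.102) in *zmp-2*. Without WT replicate 2, the lowest of the WT libraries, the adjusted p was 0.0217 and 0.0154, and DESeq2 gave 0.0389 and 0.00797. Without a filter on low counts it was 0.0359 in *zmp-2*. Over the alternatives it ranged from 0.0217 to 0.754 and from 0.00797 to 0.333. The 3′ end of AT5G35320 overlaps *MBD02*, a methyl-CpG-binding domain protein gene on the other strand, by 104 bp, so that some reads of one could be counted for the other. *MBD02* had 11.1 ± 1.89 normalized RPM in WT, 13.8 ± 3.13 for *zmp-1* and 11.7 ± 1.27 for *zmp-2*, which overlap.

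Seen over all 73 tested loci, the mutants differed little from WT. The median log2 fold change was 0.08 in *zmp-1* and 0.06 in *zmp-2*, against −0.01 and −0.02 over all genes, and the middle range of the loci, between quartiles, ran from −0.18 to 0.30 and from −0.15 to 0.21. In each mutant 43 of the 73 lay above 0, while 48.9% and 48.1% of all genes did. With library size as the only scaling 34 of 73 lay above 0 in each mutant, because that scaling moves the median of all genes to −0.12 and −0.10. Relative to those medians, 43 and 45 of the 73 were still above.

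In *zmp-1*, 13 loci had all libraries above all WT libraries (6.77% of all genes did) and 2 had all below (5.79%). In *zmp-2* the counts were 9 (8.74%) and 6 (7.52%). At an unadjusted p under 0.05 there were 5 higher and 1 lower in *zmp-1* (3.9% and 5.26% of all genes), and 7 higher and 5 lower in *zmp-2* (5.89% and 6.23%). The *zmp-2* counts are close to the background of all genes.

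**Figure D4:**
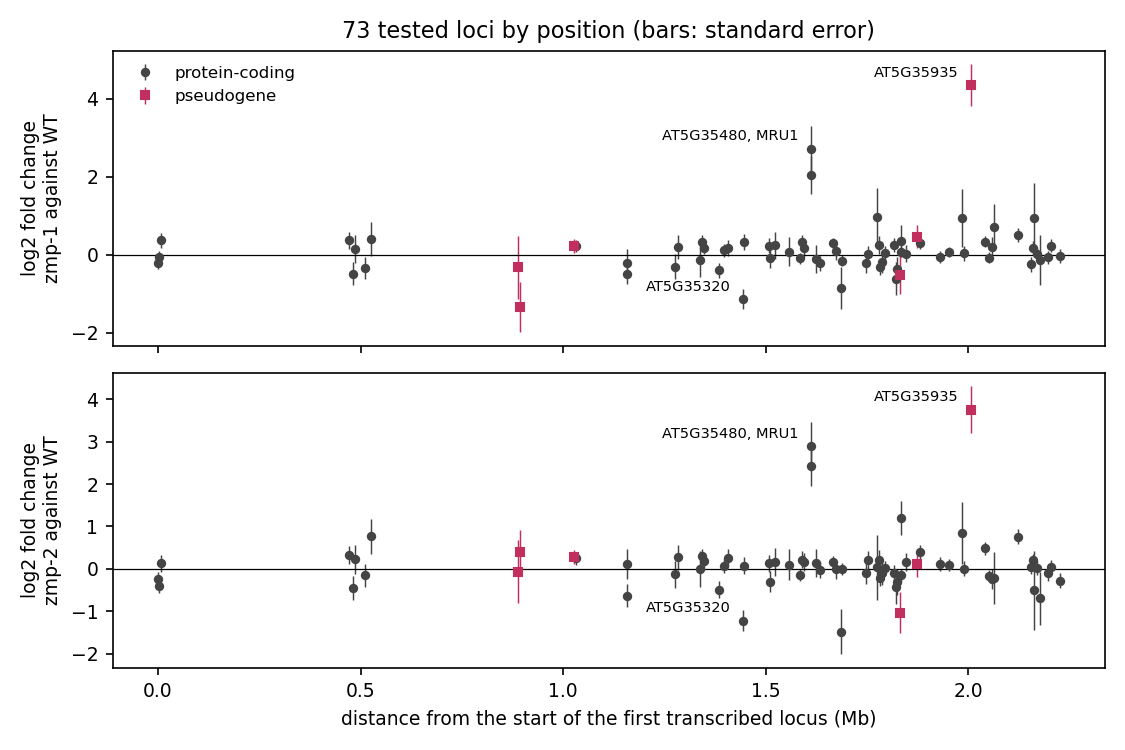
Log2 fold change against WT (y axes) of the 73 tested loci along the region (x axis, Mb from the start of the first transcribed locus), in *zmp-1* above and *zmp-2* below; circles are protein-coding loci, red squares pseudogenes, and bars the standard error. AT5G35935 (4.35 and 3.75) and the pair AT5G35480 and *MRU1* stand above the rest, and loci are sparse in the first 1 Mb.

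The protein-coding loci carry most of the transcripts. By RPKM, which also divides by exon length and so allows genes to be compared, the highest was *GS2*, the plastid glutamine synthetase that recovers ammonia from photorespiration, with 268 ± 63.8 RPKM in WT (SD, n = 3). *CAC2*, the biotin carboxylase subunit of plastid acetyl-CoA carboxylase in fatty acid synthesis, had 44.9 ± 10.4 RPKM. AT5G35530, ribosomal protein S3, had 40.4 ± 7.5 RPKM. *CAC2* and AT5G35530 do not differ beyond their spread, and both are far below *GS2*.

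The levels then descend in small steps. *G6PD1*, plastid glucose-6-phosphate dehydrogenase, had 31.4 ± 5.06 RPKM, *PAA1*, a subunit of the 20S proteasome, 30.4 ± 1.55, and *PAP26*, a purple acid phosphatase, 29.9 ± 3.03. Next came AT5G36230, an ARM repeat protein, with 28.8 ± 1.30 RPKM, and the RNA-binding protein AT5G32450 with 26.7 ± 4.04. AT5G35735, an auxin-responsive family protein, had 24.6 ± 7.24 RPKM and AT5G35680, an OB-fold nucleic acid-binding protein, 20.9 ± 3.92. From *G6PD1* down, each neighbour in this order is within the spread of the next.

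The plastid group has 12 members, all tested, and none passed in either mutant. Their median log2 fold change was 0.20 in *zmp-1* and 0.24 in *zmp-2*, against −0.01 and −0.02 over all genes, with 10 and 11 of the 12 above 0 (48.9% and 48.1% of all genes), or 9 and 10 when scaled by library size alone. At an unadjusted p under 0.05 there were 2 and 3, each above WT (3.9% and 5.89% of all genes). The green-tissue markers *RBCS1A*, *CAB2* and *RCA* had a median of −0.11 in *zmp-1*, with 1 of 3 above 0, and of 0.27 in *zmp-2*, with 3 of 3 above 0. The tested root marker, *EIR1*, was at 0.05 and −1.07. None of these markers passed, and their part in the plastid values was not tested. *CUE1*, the phosphoenolpyruvate translocator of the plastid envelope, had values of −0.33 and −0.15, below 0 under both mutants.

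*CCB3*, a factor for attaching a heme to the cytochrome b6f complex, had 77, 132 and 60 counts in WT, 281, 52 and 73 for *zmp-1* and 184, 170 and 180 for *zmp-2*. The scaled levels were 7.35 ± 1.30, 10.4 ± 1.29 and 12.5 ± 0.591 normalized RPM, in that order without overlap. Its log2 fold change was 0.51 (95% interval 0.11 to 0.92, adjusted p = 0.436) in *zmp-1* and 0.76 (0.36 to 1.16, adjusted p = 0.161) in *zmp-2*.

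AT5G35970, a P-loop nucleoside triphosphate hydrolase, had 63.5, 56.0 and 59.8 normalized RPM in WT, 68.3, 72.8 and 86.3 for *zmp-1* and 85.7, 81.9 and 83.4 for *zmp-2*. *G6PD1*, the entry enzyme of the plastid pentose phosphate pathway, had 72.9, 69.9 and 53.3 in WT, 78.2, 85.9 and 80.5 for *zmp-1* and 93.8, 86.6 and 78.0 for *zmp-2*. For both, every mutant library was above every WT library. The log2 fold changes were 0.34 and 0.49 for AT5G35970 (adjusted p = 0.510 and 0.246) and 0.32 and 0.40 for *G6PD1* (adjusted p = 0.583 and 0.358).

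The remaining plastid members gave no such separation in both mutants. *GS2* had 716, 514 and 462 normalized RPM in WT, 560, 579 and 580 for *zmp-1* and 788, 542 and 626 for *zmp-2*, overlapping throughout. *EGY1*, a plastid membrane protease, *PTM*, a PHD transcription factor with a transmembrane domain, and *HCF109*, needed for plastid translation termination, had log2 fold changes between 0.06 and 0.27 in both mutants.

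**Figure D5:**
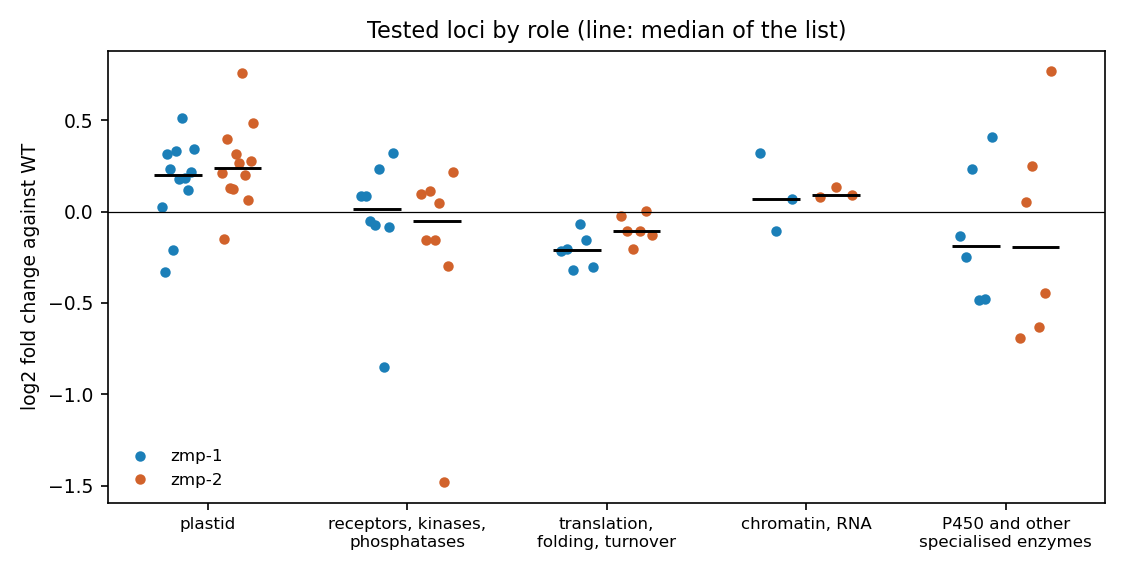
Log2 fold change against WT (y axis) of the tested loci in 5 role groups (x axis), *zmp-1* in blue and *zmp-2* in orange, with a line at each group's median. The plastid medians lie at 0.20 and 0.24 and the translation medians at −0.21 and −0.11, and no point in these groups passed an adjusted p of 0.05.

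Genes for translation, protein folding and turnover had medians below 0 by a small amount. All 6 were tested, none passed, and the median log2 fold change was −0.21 in *zmp-1* and −0.11 in *zmp-2*, against −0.01 and −0.02 over all genes. Below 0 were 6 and 5 of the 6, while 51.1% and 51.9% of all genes were. In *zmp-2* their number below 0 was 4 with upper-quartile scaling and 6 with library size alone. Relative to the median of all genes it was 5 with each of these scalings. The ribosomal protein AT5G35530 had 47.4 ± 8.79 normalized RPM in WT, 40.8 ± 6.11 for *zmp-1* and 46.5 ± 7.49 for *zmp-2*. *PAA1* had 36.5 ± 1.86, 32.8 ± 3.4 and 36.5 ± 1.97. For both genes each mutant overlapped WT.

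Of 12 receptor, kinase, phosphatase and disease resistance loci in the range 9 are members and 8 were tested, with medians of 0.02 and −0.05 and no call. *HK2*, a cytokinin receptor, had 30.6 ± 3.58 normalized RPM in WT, 32.3 ± 3.67 for *zmp-1* and 27.5 ± 1.85 for *zmp-2*. *PHYC*, the phytochrome C photoreceptor of red light, had 18.5 ± 0.111, 17.8 ± 2.57 and 20.0 ± 2.5. For both genes each mutant overlapped WT. The *HK2* levels of all *zmp-2* libraries lay below those of *zmp-1*.

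The protein kinase AT5G35580 had the lowest fold change of the tested loci in *zmp-2*. It had 6, 41 and 16 counts in WT, 19, 6 and 7 for *zmp-1* and 6, 10 and 9 for *zmp-2*, and WT replicate 2 held most of the WT counts. The groups overlapped. The log2 fold change was −0.85 in *zmp-1* (adjusted p = 0.660) and −1.48 in *zmp-2* (SE 0.531, adjusted p = 0.30).

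Chromatin, transcription and RNA genes had 3 members out of 7 loci, all tested without a call. Beside *MBD02* they are *MIS12*, a kinetochore protein that acts at the centromere itself, with 2.23 ± 0.53, 2.17 ± 0.765 and 2.44 ± 0.557 normalized RPM (WT, then *zmp-1*, then *zmp-2*), and AT5G35910, with an exonuclease-type ribonuclease H fold, with 26.5 ± 1.82, 27.8 ± 2.14 and 28.3 ± 0.674. Outside the region, a list of 23 heterochromatin and silencing factors had 22 tested genes and no call in either mutant, with 1 and 2 at an unadjusted p under 0.05 (9.16% and 12.1% of all genes).

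Of 13 cytochrome P450, triterpene, and other specialised or cell wall enzyme loci 9 are members and 6 were tested, without a call. The neighbours *CYP716A1*, *CYP716A2* and *PEN3*, 2 P450 genes and a triterpene synthase gene, had 17, 18 and 22 counts over the 9 libraries and could not be tested. Of *CYP716A2*'s 18 counts, 8 came from WT replicate 2. *GUS3*, a glucuronidase, had 40, 105 and 44 counts in WT, 86, 26 and 20 for *zmp-1* and 48, 45 and 47 for *zmp-2*. All *zmp-2* libraries were below WT after scaling (log2 fold change −0.63, adjusted p = 0.381), and *zmp-1* overlapped it (−0.48, adjusted p = 0.626).

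Of the loci in no role group, AT5G35740, a carbohydrate-binding X8 domain protein, had 18, 60 and 11 counts in WT, 95, 13 and 16 for *zmp-1* and 79, 62 and 89 for *zmp-2*. Its level was 2.25 ± 1.49, 2.85 ± 0.98 and 5.36 ± 0.559 normalized RPM, with *zmp-2* above both others. The log2 fold change was 0.36 in *zmp-1* (adjusted p = 0.833) and 1.20 in *zmp-2* (95% interval 0.34 to 2.06, adjusted p = 0.268).

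AT5G35200, of the ENTH/ANTH family of clathrin adaptors, had log2 fold changes of −0.39 and −0.49 (adjusted p = 0.565 and 0.348), with groups that overlapped. AT5G32450 had 40.8, 34.2 and 30.3 normalized RPM in WT, 32.0, 36.8 and 33.6 for *zmp-1* and 26.3, 28.7 and 24.7 for *zmp-2*. Only the *zmp-2* libraries lay below all WT libraries (log2 fold changes −0.05 and −0.40, adjusted p = 0.957 and 0.326).

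A few loci turn on a single library. The F-box gene AT5G36000 had 112 counts in *zmp-1* replicate 1, or 4.69 normalized RPM, against 0.848 to 2.03 in the other 8 libraries. The serine carboxypeptidase-like gene *scpl1* had 30 counts in WT replicate 2 and 3 and 0 in the other WT libraries. AT5G35660, a glycine-rich protein, was highest within each genotype in replicate 1, with 2.38, 3.02 and 2.12 normalized RPM against 0.265 to 1.70 elsewhere. These loci were picked after their values were seen.

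Genes with increased siRNAs in *zmp-2* inflorescences are on a list of the study, and 4 of the 93 loci are among them. The list holds 483 genes, beside 37336 loci counted in all. AT5G35100, a cyclophilin-like protein, had 24, 41 and 17 counts in WT, 75, 16 and 12 for *zmp-1* and 39, 40 and 37 for *zmp-2*. The lectin receptor kinase AT5G35370 had 56, 94 and 72, then 108, 47 and 38, then 79, 53 and 87. Neither passed in either mutant, and the groups overlapped. The extensin *EXT13* and the endonuclease-like AT5G35640, with 40 and 13 counts over the 9 libraries, could not be tested.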

How the data were processed

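Poly(A) RNA libraries were made with the NEBNext Ultra kit, sequenced as paired ends, trimmed with Trim Galore and aligned with STAR 2.5.3a to TAIR10. The deposited values are counts per gene, not normalized, as STAR wrote them, 1 file per library. The strand counted is not given in the sources used here, so opposite-strand overlaps (12 of the 93 loci) are uncertain. Members, role lists and tests were chosen with earlier results of these data known.

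Counts were filtered with filterByExpr by genotype and scaled with TMM in edgeR 4.0.16 (R 4.3.3). The quasi-likelihood fit took the 9 libraries together, with genotype as the only factor (common dispersion 0.0547, residual degrees of freedom 6), and two-sided tests were adjusted by Benjamini-Hochberg over 18109 genes, with a threshold of 0.05. Replicate numbers are from the labels. Deviations of same-numbered libraries from their genotype means correlated at 0.295, 0.255 and 0.149 between WT and *zmp-2*. Between WT and *zmp-1* the values were −0.0182 to 0.0517, and between the mutants −0.114 to 0.133. Differently numbered libraries of WT and *zmp-2* ran from −0.311 to 0.0447, below their same-numbered pairs. Over all genotypes, differently numbered libraries reached 0.207 (*zmp-1* replicate 3 with *zmp-2* replicate 2). The labels state no pairing, and the main fit used none. Normalized RPM (per 1000000) uses the TMM-scaled library size. The procedure was tested on simulated data.

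The text names loci with an adjusted p of at most 0.05, the 5 largest rises and falls at an unadjusted p under 0.05 in each mutant, the 10 highest by RPKM, the 10 pseudogenes with the highest totals, examples from each list and siRNA-gaining genes. Others are marked as chosen after seeing their values. Sequences and annotation are from RefSeq TAIR10.1, copies and repeats from blastn 2.17.0. Alternatives were DESeq2 1.42.0 without independent filtering, upper-quartile and library-size scaling, no filter, at least 10 counts in every library, organelle genes left out, separate fits of the 6 libraries, a replicate block, omission of each library, a threshold of 0.1, members by position, and another denominator for the pseudogene sum.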

Additional observations from a re-analysis of the deposited data

How the results depend on the processing

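The number of members called in *zmp-1* was 1, and 3 with DESeq2, 2 without a filter, 0 with at least 10 counts in every library, which leaves AT5G35935 out, 0 in the separate fit, and 0 to 2 when a library was left out. In *zmp-2* it was 1, and 4, 4, 0, 0 and 0 to 2 in the same order, and 3 at a threshold of 0.1. Over all genes DESeq2 called 110 and 218 where edgeR called 8 and 32, and edgeR without a filter 51 and 130. No alternative called a member between the mutants.

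The median log2 fold change in *zmp-1* was 0.071 with DESeq2, 0.11 with upper-quartile scaling, −0.032 with library size alone, 0.068 without a filter, 0.075 with at least 10 counts in every library, and 0.064 to 0.15 when a library was left out. In *zmp-2* it was 0.091 with upper-quartile scaling, −0.019 with library size alone, and −0.00092 to 0.075 without 1 library. Between the mutants it was 0.0050, 0.013, 0.019, 0.0061 and −0.023 with upper-quartile scaling, library size alone, no filter, at least 10 counts in every library and no organelle genes, and −0.032 to 0.0070 without 1 library. In *zmp-1* the median of all genes was 0.019 with upper-quartile scaling and −0.12 with library size alone. In both, 43 of the 73 tested loci lay above that median. What moved the medians in the other alternatives was not tested.

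*ZMP* passed in *zmp-1* with DESeq2 (−1.37, adjusted p = 0.0153) and missed the threshold in *zmp-2* in the separate fit (−2.35, adjusted p = 0.0558). The pseudogene sum was 26.7, 31.9 and 30.7 per 1000000 of all counts in WT, *zmp-1* and *zmp-2*, and without AT5G35935, an alternative added after seeing the data, 80.5 per 1000000 nuclear counts in *zmp-2*. Signs of small changes turned when a library was left out: AT5G32450 in *zmp-1* ran from −0.14 to 0.075 and AT5G35740 from −0.029 to 1.08, and between the mutants AT5G35480 ran from −0.47 to 0.58, *GUS3* from −0.29 to 0.0035 and AT5G35200 from −0.23 to 0.028.

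With the replicate block, which matches same-numbered libraries, the median was 0.067 in *zmp-2* and −0.020 between the mutants. AT5G35480 was at −0.051 between the mutants. The count of members called stayed at 1, 1 and 0, and the block changed no call of a named locus. Depth limits the loci with few counts: 20 of the 93 could not be tested, and a floor of 0.119 to 0.516 RPM covers several of the pseudogenes.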
